A study of Homo sapiens with 4 samples.

Results

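TRIM, RNF and MARCH genes encode mostly RING-type E3 ubiquitin ligases, and 72 of them carried at least 1 listed peak of YTHDF1 binding, out of 6679 protein-coding genes with a peak. The members were taken by symbol, as protein-coding genes whose names start with TRIM or RNF followed by a digit, or with MARCH. Spelled as in the table, 69 genes met the rule, 33 TRIM and 36 RNF genes. No symbol began with MARCH, because these names had been turned into calendar dates, and 3 MARCH genes were recovered by position. All 4 windows listed under 6.Mar lay inside MARCHF6 in the RefSeq annotation, all 3 under 8.Mar inside MARCHF8 and all 6 under 9.Mar inside MARCHF9. The symbol 1.Mar was not a MARCH gene: its 3 windows lay inside MTARC1, a mitochondrial reductase, and 0 of them inside MARCHF1.

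RNA immunoprecipitation sequencing (RIP-seq) sequences the RNA pulled down with a protein, with unselected RNA of the lysate, called the input, as its control. It was done in SNU638, an established human gastric cancer cell line, that overexpressed FLAG-tagged YTHDF1, spent 24 h without serum and was then stimulated with IFN-γ at 10 ng/ml over another 24 h. The 4 libraries were 2 IP-YTHDF1 and 2 Input libraries, both from treated, overexpressing cells, so no value below is a change caused by IFN-γ or by YTHDF1. The data are 1 table of peaks, each a window of 50 bp that carries a p-value for IP-YTHDF1 against Input, a q-value (the p-value adjusted for the windows tested) and a signal value. There is no value per library, so depth is unknown, no spread between replicates can be given and no test between groups was run. On what scale signal values were computed is unstated, so they serve here only to order windows and genes. A gene with no listed peak may be unbound, weakly expressed or not expressed, and these cannot be told apart. Of 12 epithelial markers 5 had a listed peak (EPCAM, KRT8, KRT18, KRT19 and CLDN7), or 41.7%, next to 31.8% of protein-coding genes. CDH1, KRT7, CLDN4, MUC1 and the gastric markers CLDN18, TFF1 and GKN1 had none. Among fibroblast markers 0 of 7 had one, and among leukocyte markers 1 of 7. A listed peak does not measure expression, so cell identity cannot be read from these counts.

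YTHDF1 is a cytoplasmic reader of N6-methyladenosine (m6A), a methyl mark on mRNA that affects how long a transcript lives and how well it is translated. An E3 ligase brings a ubiquitin-charged E2 enzyme to a substrate, and the RING finger, a zinc-binding fold, is what holds the E2 enzyme. TRIM proteins combine a RING with B-box and coiled-coil domains, and many of them act in antiviral and interferon signalling. RNF is a name given to RING proteins of many kinds, and MARCH proteins are mostly ligases of cell membranes with a variant RING that move immune receptors off the cell surface. Some proteins keep a TRIM name without a RING, among them TRIM14, TRIM16 and TRIM44.

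Sequence could be read for 5 of the 319 member windows, those that lie whole inside a RefSeq promoter entry (250 bases before a start and 50 after it) of GRCh38.p14. For TRIM59 the entry is its own, and for the other 4 it belongs to a neighbouring or overlapping gene. They are shown because they are the stretches of listed RNA for which letters were at hand, not because they are the strongest. Each line gives 30 bases of 1 window in the direction of the transcript, 5′ to 3′, all on the strand of the member gene. Capitals mark the m6A consensus DRACH, which is A, G or T, then A or G, then A and C, then A, C or T.
TRIM59, chr3:160449756-160449785, minus strand: gcatccgcctggagctcgtggcgctgtgtt
RNF215, chr22:30378073-30378102, minus strand: ggagccgtgagaGGACCtggcttacagcca
TRIM4, chr7:99919469-99919498, minus strand: cggttcggaagtcgtctggcctccccgcgg
RNF4, chr4:2469131-2469160, plus strand: ggcggcatctttctcgaggagctctcctgg
TRIM7, chr5:181199975-181200004, minus strand: tcggctgctaggccgcctggagGAACTgtc

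The consensus was searched on the transcript strand alone. It occurred in 2 of these 5 windows, in RNF215 as GGACC and in TRIM7 as GAACT. The shorter letters GGAC, which overlap the consensus, occurred in 1 window, that of RNF215. Among all 885 windows of protein-coding genes that could be read in the same way, 39.2% held the consensus and 23.6% held GGAC. In the first 50 transcribed bases of 35116 RefSeq promoter entries the shares were 49.6% and 18.9%. The signal values of the printed windows were 2.66 in TRIM59, 2.00 in RNF215, 1.66 in TRIM4, 1.65 in RNF4 and 1.54 in TRIM7. The highest of these, in TRIM59, held no match. A match is only a match of letters, and no m6A was measured in these libraries.

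The question put to the families was how many of their genes were listed and how strongly. RefSeq holds 171 protein-coding genes of the rule, and 71 of them had a listed peak (41.5%), against 6374 of 20056 protein-coding genes (31.8%). The 72nd member, TRIM16L, is protein-coding in the table and a transcribed pseudogene in RefSeq. Among TRIM genes 32 of 77 were listed (41.6%), among RNF genes 36 of 83 (43.4%) and among MARCH genes 3 of 11 (27.3%). Members with a peak had a median of 43.5 windows tested, as estimated by dividing q-values by p-values, against 35 in all protein-coding genes with a peak. The estimate is a lower bound for genes with significant windows missing from the table, so both medians may be too low. A gene with more tested windows has more chances of a listed one, and the part of this in the counts was not tested.

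Windows of members had signal values from 0.74 to 3.59, with a median of 1.84, against a median of 1.83 over all 24754 windows of protein-coding genes. Taking the strongest window of each gene, the median was 2.33 in members and 2.23 in all protein-coding genes. It was 2.31 in TRIM, 2.34 in RNF and 2.30 in MARCH genes. A strongest value of at least 2 was found in 58 of 72 members (80.6%), next to 69.5% of protein-coding genes with a peak, and a value above 3 in 7 members (9.72%), next to 8.1%. The 3 families overlapped in their strongest values, as the plot of all member windows shows.

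**Figure D1:**
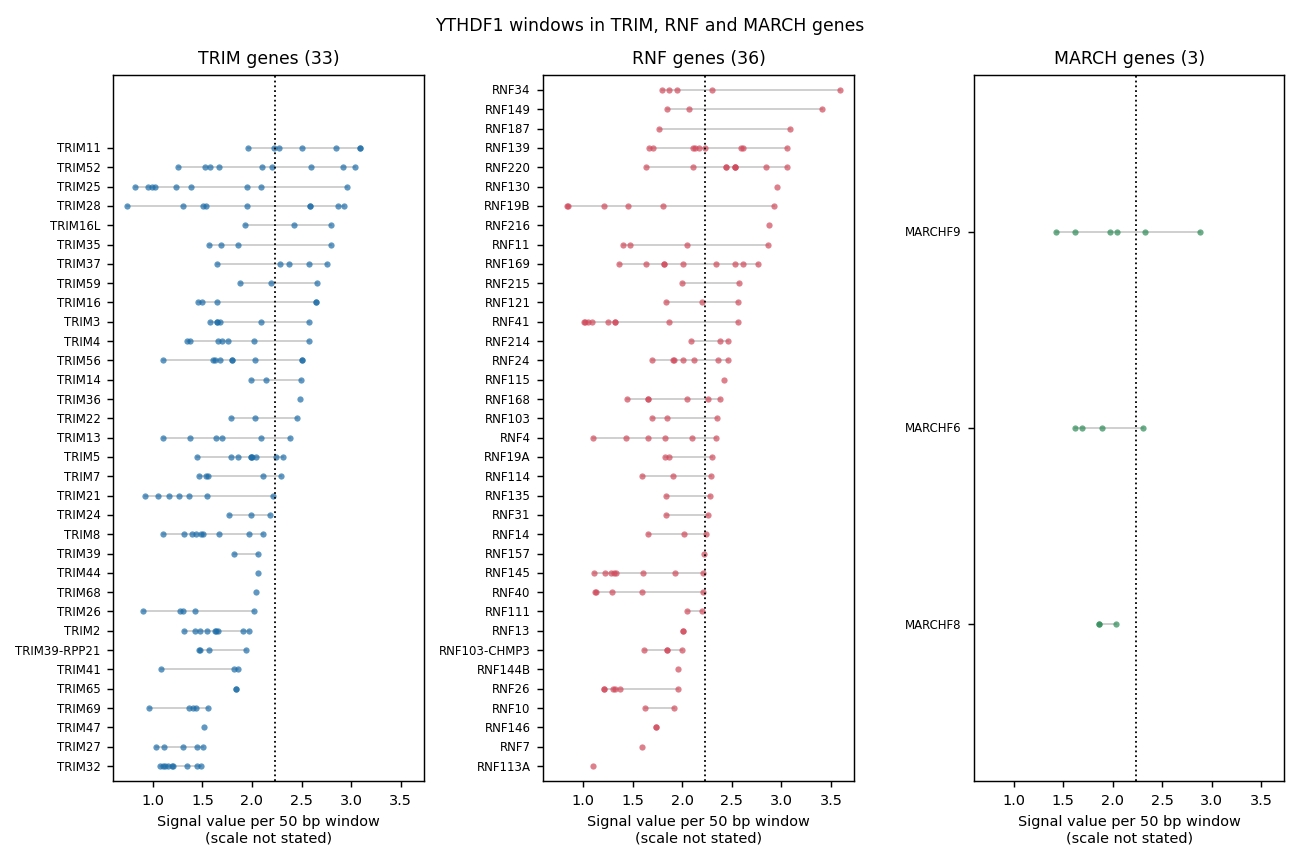
Signal value (x axis, scale not stated) of every listed 50 bp window in the 33 TRIM, 36 RNF and 3 MARCH genes, 1 point per window and 1 row per gene, ordered by the strongest window. The dotted line is the median strongest value of all protein-coding genes, 2.23, and 44 of the 72 members have a strongest window above it.

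The strongest window of any member was in RNF34, whose product is a ligase that binds caspases. RNF34 had 5 windows with signal values, from 5′ to 3′, of 1.86, 2.30, 3.59, 1.79 and 1.95. The window at chr12:121416242-121416291 stood apart from the others, and it exceeded the strongest window of 98.5% of protein-coding genes. RNF149, a ligase of endosomal membranes, came next, with 2.07, 1.84 and 3.41 in 3 windows within 200 bp. The q-values of both top windows were listed as 0, as was that of the strongest of 4 adjacent RNF11 windows (1.40, 2.05, 2.86 and 1.47).

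TRIM11 and RNF187, neighbours on chromosome 1, tied at 3.09. TRIM11, which helps to clear misfolded proteins, had 7 windows with 2.22, 1.96, 2.27, 2.85, 3.09, 2.51 and 3.09, and the last 5 formed 1 block of 250 bp about 10 kb into the gene. RNF187, a coactivator of JUN, had only 2 windows, 3.09 and 1.76, both within 1000 bp of its start. RNF139 and RNF220 tied at 3.06. RNF139 is an endoplasmic reticulum ligase with a sterol-sensing domain, and RNF220 is a ligase that acts on Wnt signalling. Each had 9 touching listed windows that made up a block of 450 bp, from 1.66 to 3.06 in RNF139 and from 1.63 to 3.06 in RNF220. No gene has more than 9 listed windows, and further significant windows of RNF139 and RNF220 are missing. The length of these blocks and 3.06 as their highest value are therefore not certain.

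TRIM52 had 9 windows in 500 bp, and its values of 1.58, 2.20, 2.92, 1.53, 3.04, 2.60, 1.25, 2.10 and 1.67 rose and fell without a single summit. RNF130, a membrane ligase, had 1 window, and it was strong (2.96, q = 1.53e-12). The next places belonged to TRIM25 (2.96), TRIM28 (2.93), RNF19B (2.92) and MARCHF9 (2.88). In their listed windows the top members differed in layout and included genes with 1 window, genes with 1 dense block and genes with windows scattered over many kilobases.

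At the other end, RNF113A, a spliceosome component, had 1 window of 1.10 (q = 0.0459). TRIM32 had 9 windows between 1.07 and 1.49, all within 850 bp, so many windows did not go with high values there. The other lowest members by strongest window were TRIM27 (1.51), TRIM47 (1.52) and TRIM69 (1.56). In TRIM69 all 5 windows, from 0.96 to 1.56, lay upstream of the RefSeq interval of the gene, at -7264 to -4664 bp from its RefSeq start, so the annotation behind the table was not that of RefSeq.

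The members that act in antiviral and interferon signalling formed 1 list, of which 12 of 16 had a listed peak (75%), next to 31.8% of protein-coding genes. The 12 were TRIM5, TRIM14, TRIM21, TRIM22, TRIM25, TRIM26, TRIM56, TRIM65, TRIM69, RNF31, RNF114 and RNF135. This list holds well-studied genes picked by name, and lists of other ligases picked in the same way had like shares, 75% of RING-between-RING ligases and 74.4% of RING ligases under other names, so nothing particular to antiviral genes can be read from it. The median strongest value of the 12 was 2.29, close to the 2.23 of all protein-coding genes. TRIM6, TRIM34, TRIM38 and RNF125 had no listed peak. All cells had received IFN-γ, which is known to raise many of these transcripts, and their level in the libraries is not in the table.

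TRIM25 and RNF135 ubiquitinate or bind the RNA sensor RIG-I. TRIM25 had 9 windows over 18450 bp, with values from 5′ to 3′ of 2.09, 1.95, 2.96, 1.23, 0.95, 0.82, 1.38, 1.02 and 0.99. The 3 listed windows nearest the start were the 3 highest, and the strongest, at chr17:56904438-56904487, had q = 3.53e-14. RNF135 had 2 windows, 2.28 and 1.83, at 12289 and 39989 bp from its nearest start.

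TRIM5, which recognises retroviral capsids, had 9 windows with 2.04, 2.00, 1.86, 1.79, 2.31, 1.99, 1.99, 2.24 and 1.44. Of these, 7 lay within 400 bp, about 5 kb from the start, and they differed little. TRIM22, its neighbour on chromosome 11 and an interferon-induced antiviral protein, had 2.45, 2.03 and 1.79. TRIM21, the cytosolic antibody receptor, had 7 windows with 1.55, 1.36, 0.92, 1.26, 2.21, 1.05 and 1.16. Its highest signal value and its lowest q-value fell on different windows, since the window of 2.21 had q = 0.000466 and that of 1.55 had q = 2.86e-06.

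TRIM56, a regulator of innate DNA and RNA sensing, had 9 windows within 2000 bp. Their values were 1.80, 2.50, 1.61, 1.80, 2.50, 1.68, 1.63, 1.10 and 2.03, with equal summits at 376 and 1526 bp from the start. TRIM14, an adaptor of mitochondrial antiviral signalling, had 2.14, 2.49 and 1.99. TRIM26 had 1.27, 1.42, 2.02, 1.30 and 0.90, and TRIM65, a ligase for the sensor MDA5, had 2 windows of 1.84 each.

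RNF31, the catalytic subunit of the complex that builds linear ubiquitin chains, had 2 windows, 2.26 and 1.83. Both overlapped windows of another listed gene, AL136295.5, on the same strand, so reads of the pair cannot be assigned with certainty. RNF114 had 2.29, 1.91 and 1.59, falling from the start toward the 3′ end. On this list only TRIM69 and TRIM65 had no window of at least 2.

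**Figure D2:**
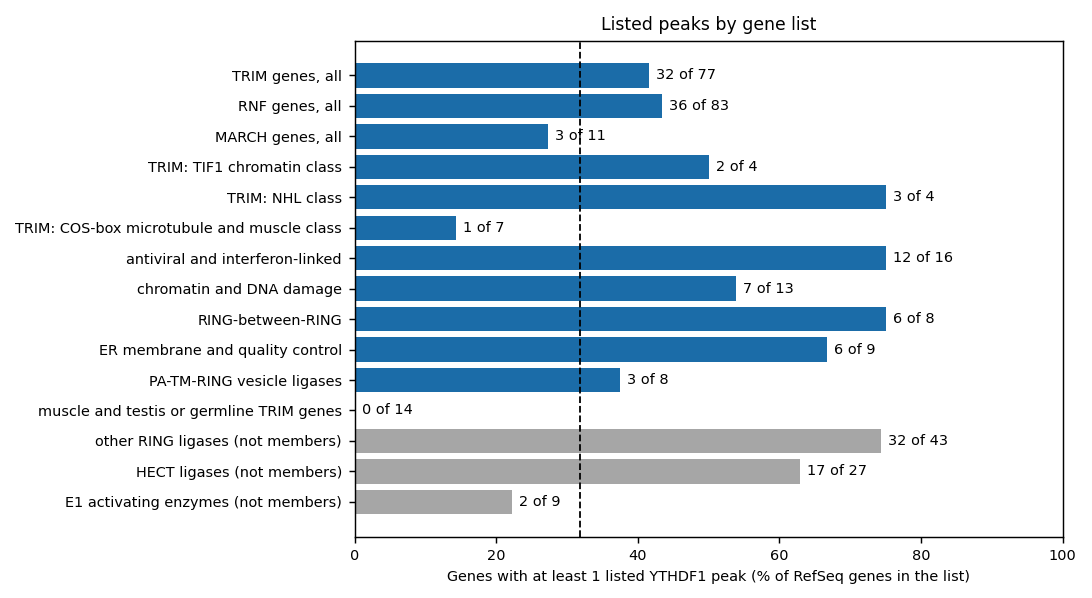
Share of RefSeq protein-coding genes with at least 1 listed YTHDF1 peak (x axis, percent), by family and by gene list, with the count beside each bar. Blue bars are TRIM, RNF and MARCH genes, grey bars are other enzymes of the ubiquitin pathway, and the dashed line is the 31.8% of all protein-coding genes. The list named for muscle, testis or germline, which also holds TRIM50, is at 0 of 14, and the antiviral list at 12 of 16.

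Among ligases of chromatin and the DNA damage response, 7 of 13 were listed (53.8%), next to 31.8% of protein-coding genes. Each of the 7 had a strongest value of at least 2, as did 69.5% of protein-coding genes with a peak. TRIM28, the corepressor of KRAB zinc finger proteins, had 9 windows with 2.59, 1.95, 2.93, 2.59, 2.87, 1.54, 1.51, 1.30 and 0.74. The first 7 formed a block of 350 bp that began about 400 bp after the start, and the last 2, at 3776 and 5126 bp from the start, were the lowest. TRIM24, a related corepressor, had 1.77, 1.99 and 2.18, while TRIM33 and TRIM66 of the same class had no listed peak.

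RNF169, which binds ubiquitinated chromatin at DNA breaks, had 6 windows near its start (1.63, 1.81, 2.34, 2.53, 2.76 and 2.61) and 3 windows 86976 to 87676 bp from it (1.36, 1.81 and 2.01). RNF168, which ubiquitinates histone H2A there, also had most of its windows near the start, with 2.38, 1.65, 1.65, 1.44, 2.26 and, 16260 bp from the start, 2.05. RNF8, which acts with RNF168, was not listed. RNF40 had 5 scattered windows between 1.12 and 2.21, and its partner RNF20 was not listed.

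RNF4, a ligase that recognises SUMO chains, had 1.65, 1.10, 1.43, 2.10, 2.34 and 1.82. The last 2, which include its strongest, lay beyond the RefSeq end of RNF4 and overlapped windows of the neighbouring gene FAM193A on the same strand. Within the RefSeq interval the highest RNF4 value was 2.10. RNF111, another ligase that reads SUMO chains, had 2.20 and 2.05.

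RING-between-RING ligases pass ubiquitin through a cysteine of their own, and 6 of 8 were listed (75%), next to 31.8% of protein-coding genes. RNF19B, one of this class, had 6 windows with 1.80, 2.92, 1.45, 1.21, 0.85 and 0.84. The first 5 lay within 639 bp of the start, and the last lay 27839 bp from it. RNF19A had 2.30, 1.82 and 1.86, RNF14 had 1.65, 2.02 and 2.24, and RNF216 and RNF144B had 1 window each, 2.87 and 1.96. RNF144A and RNF217 had no listed peak.

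Of the ligases of the endoplasmic reticulum 6 of 9 were listed (66.7%), next to 31.8% of protein-coding genes. The 6 listed had a median strongest value of 2.37. Besides RNF139 these were RNF103, RNF121, RNF145, TRIM13 and MARCHF6, with strongest values from 2.21 in RNF145 to 2.56 in RNF121. RNF5, RNF170 and RNF185 had none. Of the vesicle ligases with a protease-associated domain 3 of 8 were listed (37.5%, next to the same 31.8%), RNF13, RNF130 and RNF149.

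All 3 listed MARCH genes had a window of at least 2, as did 69.5% of protein-coding genes with a peak. MARCHF9, which takes MHC class I molecules off the cell surface, had 6 windows within 600 bp of each other and within 1000 bp of the start, with 2.04, 1.62, 1.43, 1.97, 2.33 and 2.88. From the third window on the values rose toward the 3′ side, to q = 3.86e-06 at chr12:57755754-57755803. MARCHF8, which does the same to MHC class II and CD86, had 3 isolated windows of 1.86, 2.03 and 1.86 spread over 137100 bp. MARCHF6, which degrades proteins of the endoplasmic reticulum and enzymes of sterol synthesis, had 1.89, 2.30, 1.69 and 1.62. MARCHF1 to MARCHF5, MARCHF7, MARCHF10 and MARCHF11 had no listed peak.

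A list meant to hold TRIM genes of muscle, testis or germline had a listed peak in 0 of 14 genes, next to 31.8% of protein-coding genes. The list holds the muscle genes TRIM54, TRIM55, TRIM63 and TRIM72. One of its genes, TRIM50, does not belong there, since it is known from the acid-secreting parietal cells of the stomach, and the level of none of them in SNU638 is in the table. The TRIM genes with a COS box, which bind microtubules, were listed for 1 of 7 (14.3%), next to the same 31.8%. The 1 listed was TRIM36, with 1 window of 2.48. Of the TRIM genes with NHL repeats, which bind RNA or act in neurons, 3 of 4 were listed (75%, next to 31.8%). These were TRIM3 with values from 1.58 to 2.58, TRIM2 from 1.31 to 1.97 and TRIM32, and TRIM71, a gene of embryonic cells, was not.

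The rest of the ubiquitin pathway gave a frame for these counts. Other RING ligases, under names outside the rule, were listed for 32 of 43 genes (74.4%), next to 31.8% of protein-coding genes. Their median strongest value was 2.26. HECT ligases, which have no RING, were listed for 17 of 27 (63.0%), with a median of 2.35. E1 enzymes, which start the cascade, were listed for 2 of 9 (22.2%), UBA1 and UBA7, each with a strongest value of 1.65. These lists, like the antiviral one, hold genes picked by name, whereas the TRIM and RNF families were taken whole with their tissue-restricted genes, so the shares are side by side and not a comparison.

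Members differed in how many windows they carried. The median was 4 windows, against 3 in all protein-coding genes with a peak. A single window was listed for 11 of 72 members (15.3%), next to 29.0% of protein-coding genes with a peak. No gene of the table has more than 9 listed windows, and 12 members (16.7%) were at that number, next to 12.8%. They were TRIM2, TRIM5, TRIM8, TRIM25, TRIM28, TRIM32, TRIM52, TRIM56, RNF41, RNF139, RNF169 and RNF220. The q-value depends on the rank of the p-value within its gene. In TRIM2, TRIM5, TRIM25, TRIM52, TRIM56, RNF139, RNF169 and RNF220 ranks are skipped, so significant windows are missing from these lists. In TRIM8, TRIM28, TRIM32 and RNF41 no rank is skipped, but windows with higher p-values may be missing. Lists may be cut on the 3′ side for genes on the plus strand. On the minus strand, as in TRIM5, TRIM25, TRIM52 and RNF41, it may be the 5′ side. The distribution of windows per gene shows fewer members than coding genes at 1 window and more at 3.

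**Figure D3:**
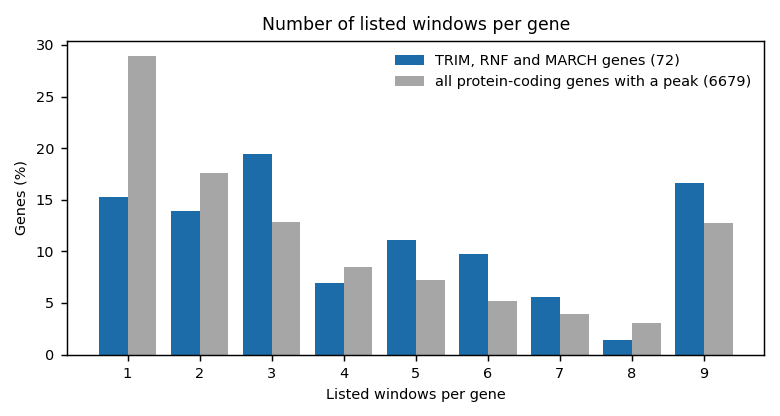
Share of genes (y axis, percent) by the number of listed windows (x axis, 1 to 9), for the 72 members in blue and for all 6679 protein-coding genes with a peak in grey. Single windows make up 15.3% of members and 29.0% of all genes, and both groups rise again at 9, the highest number listed.

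The arrangement of windows varied from gene to gene. All listed windows of a gene touched to form 1 region in 6 of 61 members with several windows (9.84%), next to 13.1% of protein-coding genes. These were RNF10, RNF11, RNF139, RNF187, RNF215 and RNF220, and RNF10, RNF187 and RNF215 among them had only 2 windows. RNF139 and RNF220 have 9 listed windows, with others missing from their lists, so a single region is not shown for these 2. All 6 are RNF genes, which had a median of 3 windows against 5 in TRIM genes, and a difference between the families was not tested. RNF41, a ligase for the receptor ERBB3, was of the scattered kind, with 9 windows in 6 regions, a strongest value of 2.56 and the others from 1.01 to 1.86. TRIM8 likewise had 9 windows in 6 regions, from 1.10 to 2.11.

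Distances were measured from the middle of a window to the nearest RefSeq start of its own gene along the genome, introns included. Of 316 member windows that could be placed, 116 lay within 1000 bp of a start (36.7%), next to 35.9% of all placed windows of protein-coding genes. The strongest window lay there in 30 of 71 members (42.3%), next to 43.0%. In 12 members every window lay near a start, in 30 some did and in 29 none did. The 12 were MARCHF9, RNF11, RNF113A, RNF115, RNF139, RNF144B, RNF149, RNF187, RNF216, TRIM47, TRIM52 and TRIM65. RNF139 is on the plus strand with 9 listed windows, so windows farther in may be missing from its list. TRIM25 and RNF41, on the minus strand with 9, had none near a start, but such windows may be missing from their lists. Windows near a start had a median signal value of 1.86 in members and 1.97 in other protein-coding genes. Windows farther in had medians of 1.80 and 1.76. Within 1000 bp of the RefSeq 3′ end of their gene, on either side of it, lay 5 member windows (1.58%), next to 4.29% of windows in other genes. They were 1 window each of RNF31, RNF40 and RNF113A, inside the gene, and both windows of RNF215, beyond its end. Members below 9 windows, whose lists are complete as far as the table shows, had 2.40% there, next to 5.41%. Near a start lay 35.1% of the windows of these members, next to 38.1% in other genes below 9 windows. The strongest window lay near a start in 39.0% of these members, next to 43.2%.

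**Figure D4:**
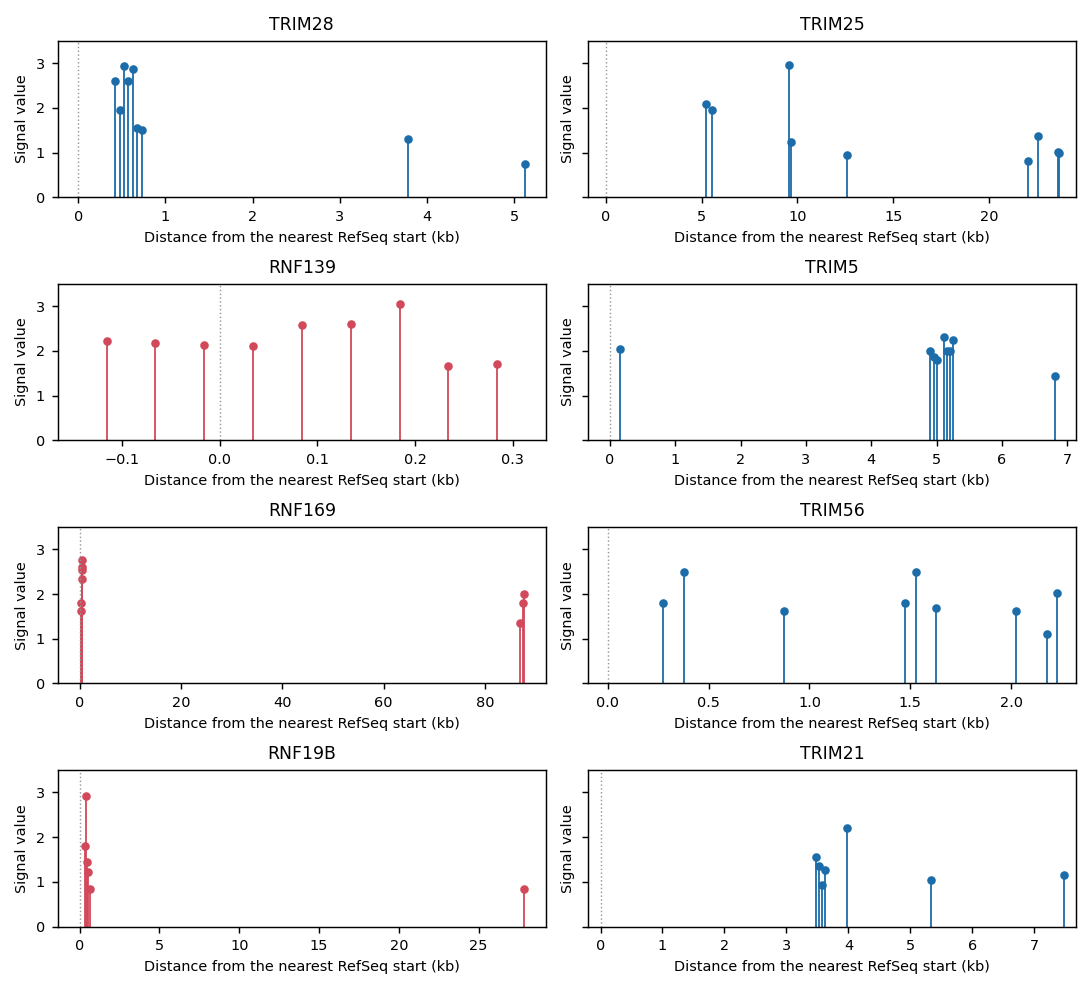
Listed windows of 8 members, with the distance from the nearest RefSeq start of the gene in kb (x axis, introns included, positive toward the 3′ end) and the signal value (y axis, scale not stated), 1 line per window. TRIM28, RNF139, RNF169 and RNF19B have their strongest windows within 1000 bp of the start, and in TRIM25, TRIM5 and TRIM21 the strongest lies farther in. TRIM56 has listed windows of 2.50 in both places. The lists of TRIM56, RNF139, RNF169, TRIM25 and TRIM5 are cut short, so stronger windows may be missing.

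Several members share their RNA with a neighbour, which limits what their values say. In all, 20 windows of 10 members overlapped one listed for another gene in the same direction, and 4 windows of 2 members, TRIM32 and TRIM52, overlapped one in the opposite direction. All 3 TRIM59 windows and 4 of the 5 TRIM16 windows were among the former. RNF103 and the read-through gene RNF103-CHMP3 overlapped in 2 places, with values of 2.35 and 1.84 under the former symbol and 1.61 and 2.00 under the latter. TRIM39 and TRIM39-RPP21 overlapped near the end of TRIM39, with 2.06 under the former and 1.47 and 1.94 under the latter. TRIM16 and TRIM16L, both on chromosome 17, had strongest values of 2.65 and 2.8, and how any reads that match both were counted is not stated. Both RNF215 windows, 2.00 and 2.57, lay beyond the RefSeq 3′ end of the gene.

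The members lie partly in clusters, and listed and unlisted genes stood side by side in them. Over all protein-coding genes 31.8% were listed, and over the genes of the rule 41.5%. In the cluster on the short arm of chromosome 11, 5 of 8 genes were listed (TRIM3, TRIM5, TRIM21, TRIM22 and TRIM68), and TRIM6, TRIM34 and their read-through gene were not. In the MHC region of chromosome 6, 4 of 10 were listed, TRIM26, TRIM27, TRIM39 and TRIM39-RPP21. At the end of the long arm of chromosome 5 all 4 genes were listed, RNF130, TRIM7, TRIM41 and TRIM52, with strongest values of 2.96, 2.29, 1.86 and 3.04.

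The share of listed members stayed above that of all coding genes when the threshold was raised. With a q-value of at most 0.001, 58 of 171 genes were left (33.9%), next to 21.2% of protein-coding genes. At a signal value of at least 2 it was 57 (33.3%), next to 22.1%. With p-values adjusted by Bonferroni over the windows of all listed genes, whose estimated number is a lower bound, it was 34 (19.9%), next to 12.5%. The signal value and the q-value did not always pick the same window. In 9 of 61 members with several windows (14.8%) no window had both the highest signal value and the lowest q-value, next to 17.6% of protein-coding genes, and besides TRIM21 these included TRIM28, TRIM37, RNF26 and TRIM69.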

How the data were processed

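RIP-seq was carried out in 2 IP-YTHDF1 and 2 Input libraries of SNU638 cells, prepared with a stranded, ribosomal RNA-depleted kit. The submitters' processing notes name STAR 2.7.3a and GRCh38, and the peak caller is not given in the sources used here. The authors deposited 1 table of annotated peaks, with a signal score, a rank, a p-value and a q-value per 50 bp window. Its columns hold the pooled comparison, so 0 columns belong to a library.

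Of 26820 rows, 1 repeated row was dropped, and positions are given from 1. Symbols were matched to RefSeq protein-coding genes (GRCh38.p14) by name or unambiguous synonym, for 6374 of 6674 symbols (95.5%), and 97.3% of matched windows lay inside the RefSeq interval. Windows tested per gene were computed from q-value and p-value quotients with p above 1e-14. For genes with skipped ranks, such as TRIM56, TRIM2 and RNF220, the estimate is too low, and by how much was not tested. Calculations used pandas 2.3.3 and NumPy 2.4.6 under Python 3.11.15, and figures matplotlib 3.10.9. The rule for members leaves out 2 genes, which are not reported here. Members and lists were chosen with earlier results of these data known, and no set test was run. Named genes are the 12 members with the largest strongest value, all MARCH genes, the antiviral list, the 5 lowest members, those at 9 windows and list members without a peak, and others were named after their values were seen. Alternatives were other thresholds, shared windows, read-through genes and joined windows.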

Additional observations from a re-analysis of the deposited data

How the results depend on the processing

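No paired analysis was possible because single libraries have no values in the table, which also kept any library from being left out, and no depth is known. The counts of 72 members, 33 TRIM, 36 RNF and 3 MARCH genes stayed within 1.5 times under a q-value of at most 0.001 and a signal value of at least 2. The 319 windows fell to 160 and 123 under these limits, with a median of 2 per member under both. Bonferroni adjustment over an estimated 310017 windows, a lower bound because some lists are cut, left 35 members, 17 TRIM, 17 RNF and 1 MARCH gene. These had 62 windows, a median of 1 per member and a median strongest value of 2.76. The mean over the windows of a gene in place of the strongest gave a median of 1.96. Main chromosomes alone, leaving out shared windows, leaving out read-through genes and TRIM16L, and joining windows (214 regions) moved no count by over 1.5 times. Chosen after seeing the data, the symbols as spelled gave 69 members and 0 MARCH genes, and limits of 500 and 2000 bp put 26.6% and 39.9% of member windows near a start, next to 29.6% and 40.5% in other genes.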
